A study of Mus musculus with 11 samples.

Results

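The transcripts described here are 1600 single-exon RNAs of the mouse retinal pigment epithelium (RPE) and choroid, each of which an assembler had matched to a known reference transcript. In each RNA-seq library the submitters had assembled the reads into transcripts with StringTie, guided by a reference annotation. An assembled transcript that equals a reference entry carries that entry's identifier. Transcripts with such an identifier on chromosomes 1 to 19 were collected over the 11 libraries, with an abundance of 0 wherever a library did not list the transcript. This gave 1600 of the 1681 reference-matched transcripts on all chromosomes, the other 81 lying on X, Y and the mitochondrial chromosome. Every one of them consisted of 1 exon, as did every other assembled transcript listed for these libraries. Having 1 exon therefore does not set them apart from the rest of the assembly. The matched transcripts were 1.38 to 1.74% of the transcripts listed for a library and took 1.16 to 1.56% of its listed abundance. They are a small part of a list that itself holds single-exon transcripts only. Abundance is given in TPM, read coverage per base scaled to the same total in each library, so that levels of transcripts of different lengths can be compared.

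The study asked whether a nanosecond laser pulse leaves a lasting mark on RPE gene expression. All mice were C57BL/6J, a wild-type strain. The laser treated group (5 libraries) received the 2RT nanosecond laser in one eye at 9 months of age, and its RPE/choroid was taken 3 months later, at 12 months. The naive control group (6 libraries) was never treated and was sampled at the same age. The tissue is a bulk lysate of the RPE with its underlying vascular layer, so fewer cells of a type and less RNA per cell cannot be told apart. The labels do not name the animal behind each library, and the p-values below measure the spread between these samples only. Total gene counts were 25700881 to 38755994 per library. Of 10 RPE markers all 10 were detected, at a sum of 96788 to 134581 CPM (gene counts scaled to the same library total) in control and 80668 to 131486 in laser libraries. The 8 markers of the neural retina, which the dissection removes, summed to 6089 to 24562 CPM in control and 4049 to 18802 in laser libraries. The 4 detected markers of Schwann cells, the glia of choroidal nerves, summed to 391 to 679 and 595 to 1298 CPM. The part of such cells in the results below was not tested. The headers of the assembled files also carry a label, R1 for naive control libraries 1 to 3 and laser treated libraries 1 and 2 and R2 for the others, whose meaning is not given in the sources used here. Differences within each label are given where they bear on a result.

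Most mammalian genes are spliced, and those that are not fall into a few well-known kinds. Replication-dependent histone genes, many G protein-coupled receptors, the clustered protocadherins and immediate early genes such as Jun have a coding sequence without introns. Processed pseudogenes are copies of spliced messenger RNAs that were reverse transcribed and inserted elsewhere in the genome, so they lack the introns of the gene they came from and often stay nearly identical to it. MicroRNA hairpins and small nucleolar RNAs (snoRNAs) are mostly cut out of the introns or exons of longer host transcripts. A microRNA recognises its target messenger RNAs mainly through its seed, bases 2 to 8 of the mature form. In the RPE, a monolayer that recycles visual pigment and engulfs shed photoreceptor tips, miR-204 is a well-known abundant microRNA.

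The following sequences are shown because later results turn on them. The first set are the mature microRNAs, from RefSeq on GRCm38.p6, of the hairpins with the highest levels (Mir1982, Mir677, Mir3064 and Mir1892), of the RPE microRNA miR-204, of miR-21a, whose hairpin was very uneven between libraries, and of the 2 hairpins whose levels were higher in every laser library than in any control, Mir546 and Mir5131. Capitals mark the seed.
mmu-miR-1982-5p: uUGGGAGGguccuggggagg
mmu-miR-677-5p: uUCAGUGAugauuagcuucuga
mmu-miR-3064-5p: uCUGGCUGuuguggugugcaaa
mmu-miR-1892: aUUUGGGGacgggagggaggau
mmu-miR-204-5p: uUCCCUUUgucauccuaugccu
mmu-miR-21a-5p: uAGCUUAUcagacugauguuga
mmu-miR-546: aUGGUGGCacggaguc
mmu-miR-5131: cGGCGCCCcacggagccccgagc
These 8 carry 8 different seeds. Among the 51 hairpins with a mature sequence and a mean TPM of 1 or more, 79 mature sequences held 76 seeds, and sharing was limited to Mirlet7d with Mirlet7f-1 (GAGGUAG), Mir29b-2 with Mir29c (AGCACCA) and Mir2861 with Mir3091 (GGGCCUG).

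The second set shows why a processed copy and its coding gene are hard to tell apart by reads. Gng5 encodes a gamma subunit of heterotrimeric G proteins, and its coding sequence of 207 bases is spliced from chr3:146499940-146503385 (GRCm38, plus strand). Gm15776 (chr16:22295027-22295233, plus strand), the third most abundant single-exon transcript, Gm3150 (chr15:72913357-72913563, plus strand) and Gm13342 (chr2:22410525-22410731, minus strand) are copies of it without introns. Capitals in the copies mark bases that differ from Gng5, over the part held by the annotated exon.
Gng5: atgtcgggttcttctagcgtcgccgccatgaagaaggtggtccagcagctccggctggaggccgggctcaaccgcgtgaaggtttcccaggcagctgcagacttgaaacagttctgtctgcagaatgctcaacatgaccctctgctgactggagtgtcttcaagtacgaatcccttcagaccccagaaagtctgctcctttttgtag
Gm15776: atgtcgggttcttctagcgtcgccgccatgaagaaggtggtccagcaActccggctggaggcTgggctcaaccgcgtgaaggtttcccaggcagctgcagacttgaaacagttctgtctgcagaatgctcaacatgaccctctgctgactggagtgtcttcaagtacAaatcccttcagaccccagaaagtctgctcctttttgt
Gm3150: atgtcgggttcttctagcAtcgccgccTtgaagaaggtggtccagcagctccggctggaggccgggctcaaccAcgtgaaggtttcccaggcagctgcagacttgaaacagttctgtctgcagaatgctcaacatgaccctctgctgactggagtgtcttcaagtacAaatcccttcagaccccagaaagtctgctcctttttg
Gm13342: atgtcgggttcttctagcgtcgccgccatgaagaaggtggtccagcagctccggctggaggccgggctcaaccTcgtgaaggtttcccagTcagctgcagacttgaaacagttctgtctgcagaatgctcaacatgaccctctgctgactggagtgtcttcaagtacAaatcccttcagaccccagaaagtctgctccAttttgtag
Counted from 1 at the A of the start codon, with the base of Gng5 first, Gm15776 differed at G48A, C63T and G168A and was 98.54% identical. Gm3150 and Gm13342 differed at 4 positions each. The change G168A was shared by all 4 Gng5 copies among these transcripts, the other being Gm3785.

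The third set are the 3′ stem-loops of replication-dependent histones, the structure that takes the place of a poly(A) tail on these messenger RNAs. They are shown with 5 bases on each side, and capitals mark the 16 bases of the motif, here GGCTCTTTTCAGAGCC. The search on the transcript strand also accepted C in place of its first T and G in place of its first A.
Hist3h2a: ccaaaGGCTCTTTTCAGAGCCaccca
Hist1h2ae: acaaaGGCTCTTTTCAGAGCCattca
Hist2h3c2: acaaaGGCTCTTTTCAGAGCCaccac
The motif lies at chr11:58955172-58955187 in Hist3h2a, at chr13:23570668-23570683 in Hist1h2ae and at chr3:96238485-96238500 in Hist2h3c2 (GRCm38.p6). It was found in 6 of the 45 histone transcripts with a whole sequence and in none outside the list, 0.673% of the 891 transcripts searched. A histone without the searched pattern may have a stem-loop of another sequence or an annotated end before it.

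Abundance was concentrated in few transcripts. The most abundant, Malat1, held 11.8% of the summed mean TPM, the first 12 held 34.4% and the first 100 held 76.7%. Mean TPM over the 11 libraries was 100 or more for 25 transcripts, from 10 to 100 for 145, from 1 to 10 for 415, from 0.1 to 1 for 486 and below 0.1 for 529. Of the 1600, 697 (43.6%) were listed in all 11 libraries, 214 in 1 library and 3 at a TPM of 0 wherever they were listed. The length ran from 28 to 83437 bases with a median of 986, and 333 were shorter than 200 bases.

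By RefSeq biotype, 562 transcripts were protein-coding, 363 pseudogenes, 216 microRNA precursors, 149 long noncoding RNAs (lncRNAs) and 113 small nuclear, nucleolar or other short RNAs, while 197 had no biotype in the table used. Protein-coding transcripts together held 4793 ± 206 TPM in control (SD, n = 6) and 4712 ± 180 in laser libraries (n = 5). Pseudogenes held 3084 ± 430 and 2398 ± 400 TPM. LncRNAs held 2101 ± 801 and 1644 ± 544 TPM, with Malat1 alone at 1638 ± 791 and 1172 ± 561 TPM. MicroRNA precursors held 1579 ± 92.6 and 1609 ± 96.0 TPM, the narrowest spread relative to the level after the protein-coding class. The short RNAs held 493.3 ± 161 and 563 ± 227 TPM, and the transcripts without a biotype 570 ± 84.7 and 470 ± 42.2 TPM.

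**Figure D1:**
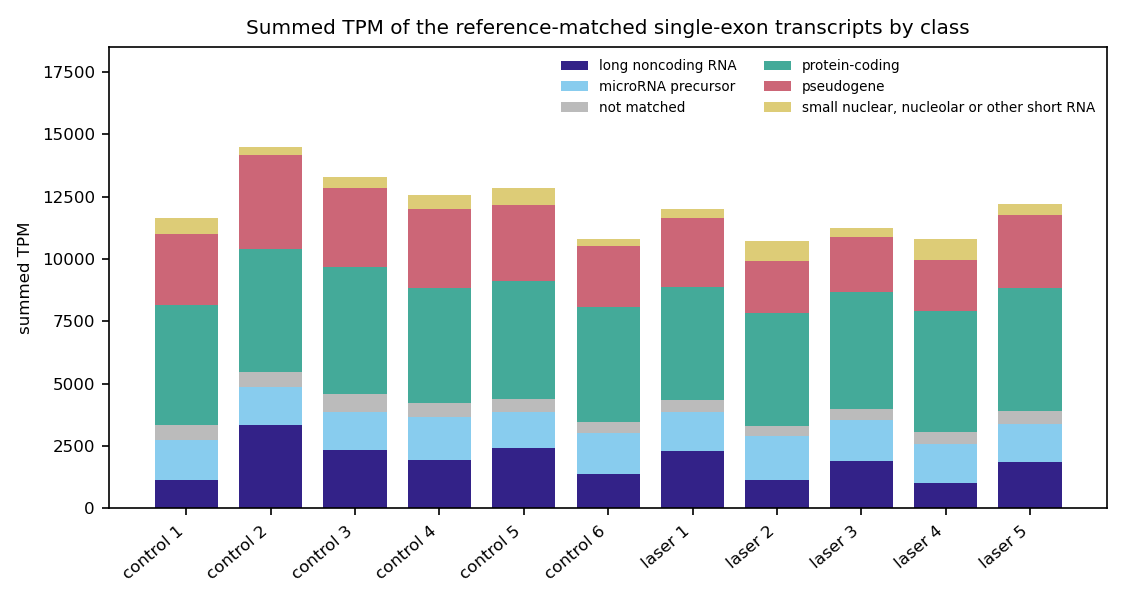
Summed TPM of the reference-matched single-exon transcripts in each of the 11 libraries, stacked by class, with the 6 naive control libraries on the left and the 5 laser treated libraries on the right. The totals run from 10813 to 14509 TPM in control and from 10722 to 12216 TPM in laser libraries, and the lncRNA and pseudogene segments vary most.

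The 12 transcripts with the highest mean TPM were Malat1, Atp6v0c-ps2, Gm15776, Gm9786, Mir1982, Gm8203, Hist2h2aa2, Gm3452, Pcbp1, Hist3h2a, Mir677 and Hist2h2aa1. Malat1, a nuclear lncRNA of 6982 bases (chr19:5795690-5802671), had a lowest, median and highest control TPM of 716, 1658 and 2897. Its laser values were 1837, 676, 1436, 503 and 1407 TPM. The ranges overlapped in part, with the laser values of 676 and 503 TPM below every control. The difference was −0.49 ± 0.41 (SE) on the log2(TPM + 1) scale (limma, adjusted p = 0.594). Pcbp1, an intronless gene for a poly(C) RNA-binding protein (chr6:86524494-86526171), had 136, 169 and 205 TPM as lowest, median and highest control value and 212, 187, 214, 224 and 200 TPM in the laser libraries. It was higher in 3 laser libraries than in any control, with a log2 difference of 0.27 ± 0.12 (limma, adjusted p = 0.35). Atp6v0c-ps2, a processed copy of the gene for a proton pump subunit of lysosomes, had 380, 456 and 580 TPM in control and 633, 519, 563, 480 and 538 in laser libraries, again with overlap.

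A second measure, the deposited gene counts, showed that high TPM did not always come with many reads assigned to the gene. For each transcript with a mean TPM of 1 or more and a row in the count table (419 transcripts), its TPM was divided by the mean CPM per kilobase of its length. The median ratio was 1.13, with quartiles of 1.10 and 1.31, and Malat1 (1.06), Pcbp1 (1.14), Hist3h2a (1.16), Adra2c (1.15) and Jund (1.13) lay in or near that band. Hist2h2aa1 and Hist2h2aa2, a pair of H2A histone genes identical to each other over the sequence compared, had ratios of 87.2 and 47.4. Gm15776 had 86.5, Gm8203 65.8, Atp6v0c-ps2 49.3 and Gm6485 36.5. In all, 23 transcripts had a ratio of 10 or more, of which 15 were pseudogenes. Among the 66 with a near-identical coding gene elsewhere in the genome (at least 95% identity over at least 90% of the sequence) the median ratio was 5.29 and 15 reached 10, against a median of 1.12 and none reaching 10 among the 302 that were searched and had none. How either program was set to treat reads that match several places is not given in the sources used here, so the TPM of a copy and that of its coding gene are not separate measurements of the 2 loci.

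Histones were the most abundant of the coding groups. The list held 64 replication-dependent histone transcripts with a mean TPM up to 196, and their sum was 1047 ± 102 TPM in control and 1050 ± 79.2 in laser libraries. Hist3h2a (chr11:58954685-58956674), which carries the stem-loop shown above 1487 bases before its annotated end, had 146, 196 and 216 TPM as lowest, median and highest control value. Its laser values were 165, 173, 215, 189 and 130 TPM, inside or just below the control range. The canonical or the common variant poly(A) signal (AATAAA or ATTAAA) stood in the last 50 bases of 8 of the 45 histone transcripts with a whole sequence. Among protein-coding transcripts of 200 bases or more it stood there in 204 of 368 (55.4%), among lncRNAs in 63.8% and among pseudogenes in 11 of 95 (11.6%). The libraries were made with an oligo(dT)-primed kit, which copies RNA with a poly(A) tail or an internal run of A.

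Of the 32 histone transcripts tested, 13 were higher and 19 lower after laser, with a median log2 difference of −0.04. In the limma comparison 1 was higher and 1 lower at an unadjusted p under 0.05, beside 5.2% and 8.39% of everything tested. The first was Hist1h4c, an H4 gene chosen for mention after its values were seen, with 0.422, 3.68 and 8.80 TPM as lowest, median and highest control value and 7.23, 8.66, 8.94, 5.48 and 7.33 TPM after laser. Hist2h2aa2 had a log2 difference of −0.03 ± 0.14 and Hist2h2aa1 of −0.04 ± 0.14.

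The comparison of laser with control asked whether any of these transcripts differed 3 months after treatment. A transcript entered it with a TPM of 1 or more in at least 5 libraries, which 564 of the 1600 met. Log2(TPM + 1) was fitted with limma over all 596 reference-matched transcripts that met it, with Benjamini-Hochberg adjustment over all of them. None of the 564 passed an adjusted p of 0.05, where the background over all tested was also 0%, and the smallest adjusted p was 0.199. Without naive control library 6, 3 passed, the coding-gene copies Gm19503, Gm15118 and Gm14277, all lower after laser. At an unadjusted p under 0.05, 30 transcripts (5.32%) were higher and 46 (8.16%) lower, beside 5.2% and 8.39% of everything tested. The groups did not overlap for 3 transcripts with higher and 6 with lower laser values, beside 0.503% and 1.01% of everything tested. The share of the single-exon transcripts in either direction was therefore near the background, which they themselves make up for the most part. After scaling TPM by the upper quartile of each library, the same counts were 41 higher and 37 lower.

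In the deposited counts, edgeR's quasi-likelihood test over 14602 genes included 554 genes that hold a single-exon transcript, and none passed an adjusted p of 0.05 (0% of all genes), the smallest being 0.177. At an unadjusted p under 0.05, 10 of the 554 were higher (1.81%) and 19 lower (3.43%), beside 8.24% and 7.68% of all genes. None had only higher and 2 had only lower laser values, against 1.4% and 0.863% of all genes. DESeq2 gave an adjusted p to 113 of these genes and called 2 of them, Eid1 and Tspyl4, while calling 7.88% of the genes it adjusted. The TPM and the counts come from the same libraries, so they are set side by side here and neither is a check on the other.

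**Figure D2:**
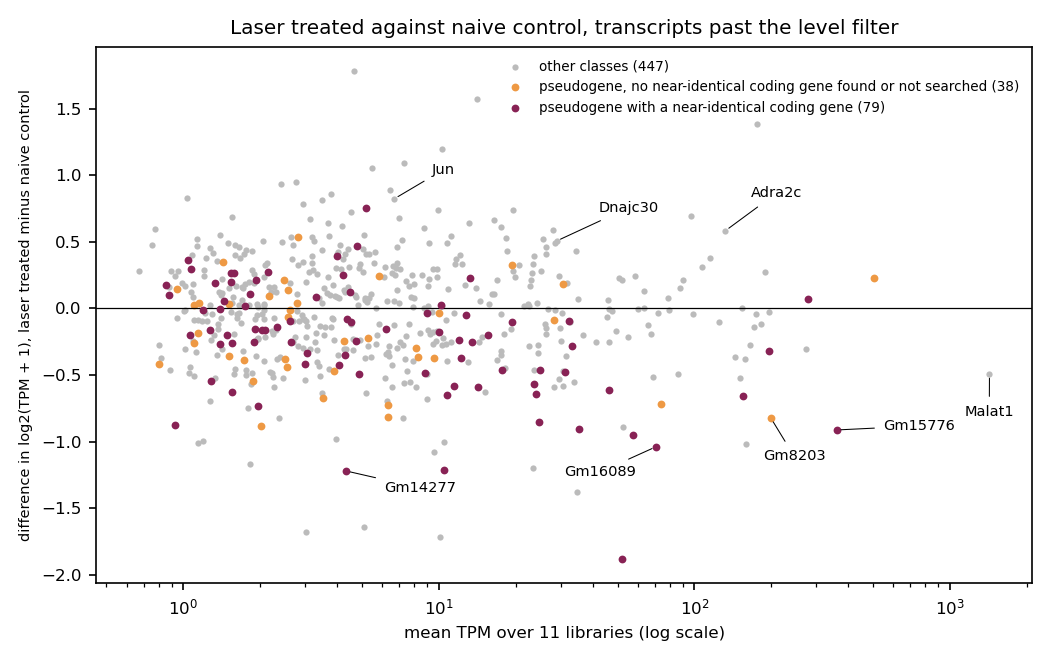
Difference in mean log2(TPM + 1), laser treated minus naive control, against mean TPM (log axis) for the 564 single-exon transcripts past the level filter, each point 1 transcript. Pseudogenes with a near-identical coding gene (79, dark) lie mostly below 0, with Gm14277 at −1.22, Gm16089 at −1.04 and Gm15776 at −0.91, while the other classes spread to both sides.

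Most tested pseudogenes had lower values after laser. Of the 117 tested, 81 were lower and 36 higher after laser, and the median log2 difference was −0.20 beside −0.04 over all 596. None passed the adjusted threshold in limma. At an unadjusted p under 0.05, 25 were lower and 2 higher, beside 8.39% and 5.2% of everything tested. The protein-coding class had 14 lower and 20 higher of 263 at that p. For 5 pseudogenes the groups did not overlap, all with lower laser values, beside 1.01% of everything tested. A near-identical coding gene was searched for in 286 of the 363 pseudogenes and found for 179. Of the 79 tested with such a gene, 57 were lower and 22 higher, and 20 and 2 reached an unadjusted p under 0.05. Of the 15 tested for which none was found, 9 were lower and 6 higher, and 0 reached it. Of the 23 tested that could not be searched, 15 were lower and 8 higher, and 5 were lower at that p. The difference between these sets was not tested.

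Gm8203, a pseudogene of 881 bases that lies in an exon of Tmcc1 on the opposite strand (chr6:116173634-116174514), had the smallest p. Its lowest, median and highest control TPM were 189, 253 and 293, and its laser values were 175, 104, 130, 114 and 183. Every laser library was below every control library, and the log2 difference was −0.82 ± 0.18 (limma, adjusted p = 0.199). Its sequence was not searched for copies, and its counts gave −0.45 ± 0.43 from 3.04 ± 0.328 CPM in control and 2.22 ± 0.518 after laser.

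Gm14277 (chr2:157168820-157169278), 97.78% identical to Snrpd1, which encodes a core protein of the spliceosome, had 3.02, 6.21 and 9.49 TPM as lowest, median and highest control value. Laser values were 2.31, 2.52, 2.05, 0.743 and 2.78 TPM, all below the control range, with a log2 difference of −1.22 ± 0.27 (limma, adjusted p = 0.199). Snrpd1 itself had 94.8 ± 28.7 CPM in control and 43.4 ± 14.7 after laser, a log2 fold change of −1.13 ± 0.25 (edgeR, adjusted p = 0.172). Gm5802 (chr14:62540469-62541193), 95.29% identical to Snrpn of the same complex, had 1.92, 2.45 and 3.40 TPM in control and 0.878, 1.70, 1.13, 1.12 and 1.02 TPM after laser, again without overlap. Its log2 difference was −0.73 ± 0.18 (limma, adjusted p = 0.199), and −1.10 with a pseudocount of 0.1. Snrpn was almost absent, at 0.629 ± 0.457 CPM in control and 0.593 ± 0.530 after laser, with a log2 fold change of −0.08 ± 1.09 (edgeR, adjusted p = 0.983).

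Apoo-ps (chr13:107414163-107414767) is identical over its searched sequence to Apoo, which encodes a mitochondrial cristae protein. The lowest, median and highest control TPM of Apoo-ps were 148, 179 and 219, and the laser values were 155, 134, 104, 83.9 and 115. Only laser treated library 1 reached the control range, and the log2 difference was −0.66 ± 0.16 (limma, adjusted p = 0.199). Apoo had 355 ± 56.4 CPM in control and 218 ± 69.8 after laser. Gm15118 (chr7:103882575-103883100), a transcript without a biotype that is 99.14% identical to the mitochondrial import gene Dnajc19, had 6.92, 12.9 and 20.2 TPM in control and 7.09, 4.51, 5.80, 5.22 and 8.75 after laser. Its log2 difference was −1.002 ± 0.25 (limma, adjusted p = 0.199), and Dnajc19 had 47.0 ± 13.9 and 27.3 ± 7.10 CPM.

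**Figure D3:**
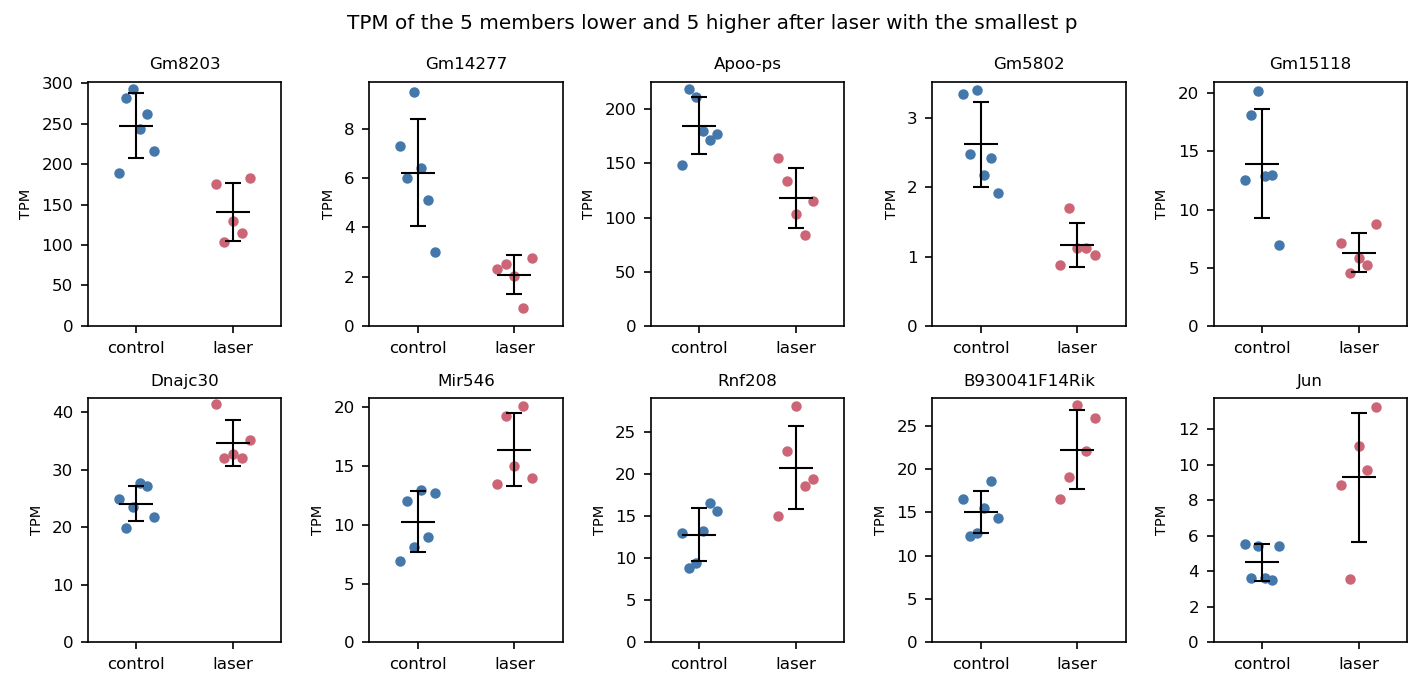
TPM in each library of the 5 single-exon transcripts with lower and the 5 with higher laser values that had the smallest p, with control in blue, laser in red and bars for mean ± SD. Gm8203, Gm14277 and Gm5802 in the lower set and Dnajc30 and Mir546 in the higher set have groups that do not overlap, and in Jun 1 laser library lies in the control range.

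In the plot of 6 copies and their coding genes, of which Gm16089, Gm6265, Gm8069 and Gm3837 were chosen after their values were seen, the same libraries stood high or low. Gm15776 had 208, 439 and 817 TPM as lowest, median and highest control value and 279, 145, 189, 167 and 442 after laser, and Gng5 had 235 ± 63.8 CPM in control and 134 ± 73.2 after laser. Gm16089, a copy of Uqcrb, which encodes a subunit of respiratory complex III, had 42.2, 97.6 and 122.8 TPM in control and 52.4, 35.7, 32.0, 25.1 and 82.3 after laser. Uqcrb had 1008 ± 311 and 495 ± 256 CPM. Gm6265, a copy of the cytochrome c oxidase gene Cox6c, had 28.0, 78.4 and 107 TPM in control and 44.7, 28.1, 27.1, 21.04 and 69.4 after laser. In 5 of the 6 copies naive control library 6 was the lowest control and in 5 laser treated library 5 was the highest laser library. In the coding genes this held for 5 of 6 and 6 of 6. Where a read lies in a stretch identical in both, copy and gene cannot be told apart, so the 2 rows of values are not independent. Gm3150, the Gng5 copy shown above and likewise chosen, had 2.85, 88.9 and 153 TPM in control and 63.0, 1.77, 2.07, 35.5 and 4.78 after laser, with libraries near 0 in both groups.

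Gm8069, a copy of Tomm5 of the mitochondrial outer membrane import channel, had 29.4, 40.4 and 59.0 TPM as lowest, median and highest control value and 27.4, 23.2, 18.99, 12.4 and 38.8 after laser. Gm3837, a copy of the apoptosis-related gene Pdcd5, had 18.6, 30.5 and 43.7 TPM in control and 17.2, 15.2, 12.4, 12.1 and 27.5 after laser. In both, 4 laser libraries lay below every control and laser treated library 5 lay inside the control range. The coding genes Tomm5 and Pdcd5 had 37.5 ± 8.31 and 67.1 ± 18.9997 CPM in control and 22.2 ± 8.58 and 36.2 ± 15.4 after laser.

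**Figure D4:**
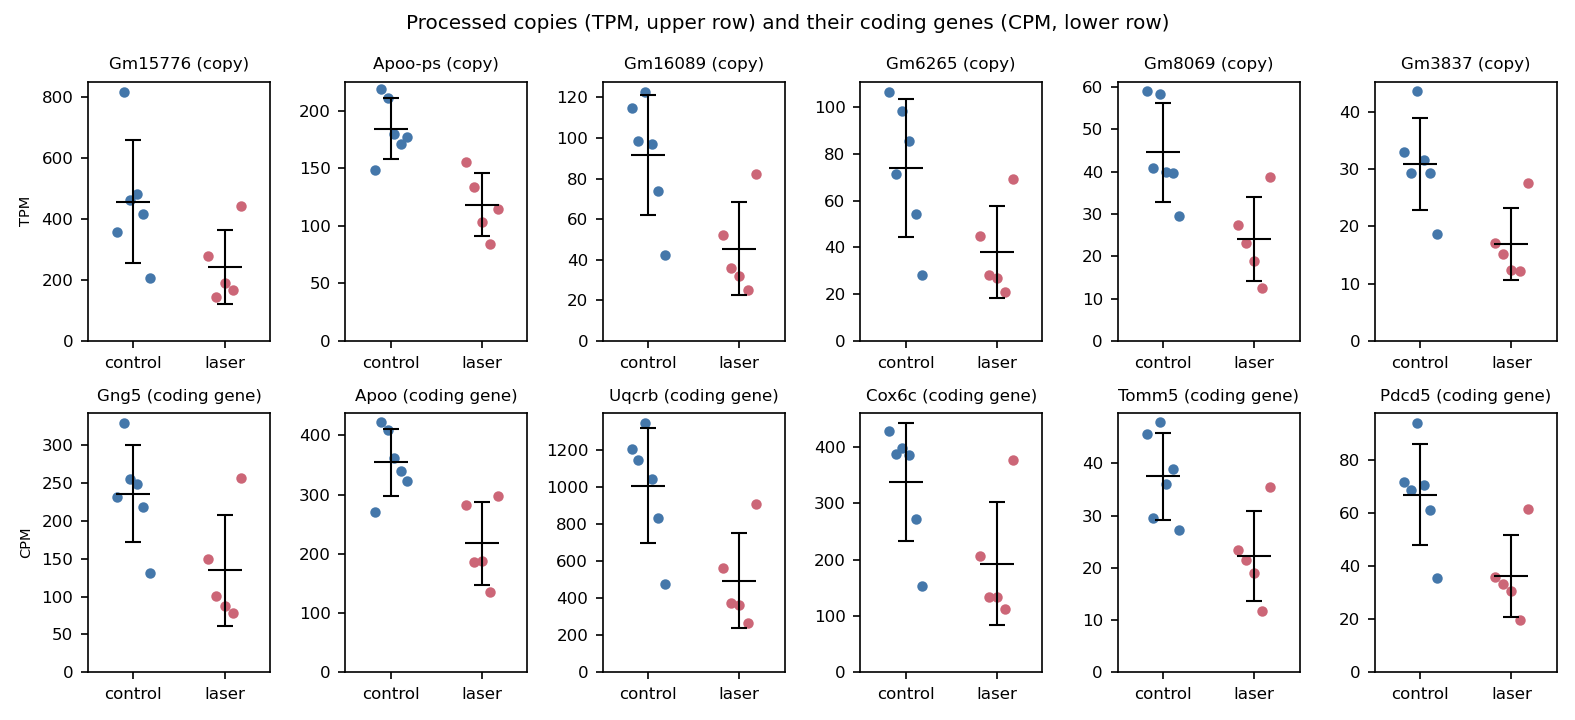
Processed copies in TPM (upper row) and their coding genes in CPM (lower row), 1 point per library, with mean ± SD for 6 naive control (blue) and 5 laser treated (red) libraries. Laser values are mostly lower in both rows, with 1 high laser library and 1 low control library in most panels, as in Gm16089 at 82.3 and 42.2 TPM.

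The 79 tested pseudogenes with a near-identical coding gene pointed to 66 coding genes with a row in the count table. Of these, 56 were lower and 10 higher after laser, with a median log2 fold change of −0.39 beside −0.02 over all 14602 genes. None passed edgeR's adjusted threshold (smallest adjusted p = 0.172), and 31 were lower and 4 higher at an unadjusted p under 0.05, beside 7.68% and 8.24% of all genes. Not every copy lay low: Gm9786, 99.71% identical to Oaz1, the antizyme gene of polyamine metabolism, had 271 ± 9.40 TPM in control and 285 ± 22.6 after laser, while Oaz1 had 423 ± 11.6 and 404 ± 51.3 CPM. Gm3452, a copy of the pyruvate carrier gene Mpc1, had 165, 219 and 263 TPM as lowest, median and highest control value and 212, 153, 143, 156 and 199 after laser. Gm15431, a copy of Tma7 listed as coding and chosen after its values were seen, had 101, 173 and 366 TPM in control and 89.6, 75.4, 102, 87.3 and 124 after laser. Leaving out single libraries moved the number of pseudogenes lower at an unadjusted p under 0.05 from 25 to as few as 14 (without laser treated library 4) and as many as 30 (without naive control library 6 or laser treated library 5). The median was −0.06 over the 196 pseudogenes listed in all libraries and −0.01 over the 326 tested without the level filter, of which 180 were lower and 146 higher.

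Ribosomal protein genes and copies form a list of 20, and the copies make up most of it. Of 11 tested, 10 were lower and 1 higher, with a median log2 difference of −0.18 and 2 lower at an unadjusted p under 0.05, beside 8.39% of everything tested. The median was −0.34 without laser treated library 5, with 4 lower at that p, −0.30 without naive control library 6, and −0.11 without naive control library 1, with 7 lower and 4 higher in all. Without laser treated library 3 or 4, 0 reached that p. Gm13654, identical to Rps6 over its searched sequence, had 31.3, 35.1 and 41.1 TPM in control and 29.0, 29.1, 29.8, 25.4 and 34.4 after laser. Its log2 difference was −0.28 ± 0.12 (limma, adjusted p = 0.336). Gm8430, a copy of Rps27a, had a difference of −0.65 ± 0.25 (limma, adjusted p = 0.289), and Rps4y2, whose nearest coding gene Rps4x is 80.07% identical, of 0.18 ± 0.17.

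Intronless transcription factors of the immediate early response lay on the other side. The list of AP-1, C/EBP, Maf and immediate early genes, which are switched on rapidly by growth or stress signals, had 13 members and 10 tested. After laser 9 were higher and 1 lower, with a median log2 difference of 0.35, and 3 were higher at an unadjusted p under 0.05, beside 5.2% of everything tested. Without laser treated library 5, 7 were higher and 3 lower. Their summed level was 97.5 ± 13.5 TPM in control and 133 ± 28.2 after laser, and under the alternatives the median lay between 0.23 and 0.50. None passed the adjusted threshold.

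Jun (chr4:95049036-95052222), a subunit of the AP-1 transcription factor, had 3.50, 4.52 and 5.56 TPM as lowest, median and highest control value. Its laser values were 8.85, 3.56, 11.1, 9.73 and 13.3 TPM, so 4 of 5 lay above every control and laser treated library 2 lay among the lowest. The log2 difference was 0.82 ± 0.27 (limma, adjusted p = 0.278), 0.21 within label R1 and 1.26 within R2, and the counts gave 0.89 ± 0.29 (edgeR, adjusted p = 0.195). Jund, of the same family, had 18.3, 23.6 and 29.9 TPM in control and 23.6, 35.6, 36.1, 37.8 and 37.0 after laser, with laser treated library 1 alone inside the control range. Cebpb, a C/EBP factor of inflammation, had 16.4, 24.1 and 28.2 TPM in control and 23.01, 32.7, 33.5, 34.9 and 48.8 after laser. Cebpd differed by 0.11 ± 0.20 and Maf, the only lower member and chosen after its values were seen, by −0.31 ± 0.33.

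G protein-coupled receptors, which relay hormone and transmitter signals, numbered 59, but most were barely present, with a median mean TPM of 0.084 and 23 listed in 1 library. Of 10 tested, 8 were higher and 2 lower after laser (median 0.16). An unadjusted p under 0.05 was reached by 2, both higher, beside 5.2% of everything tested. In the counts, 9 of 18 genes were higher and 9 lower, with 1 higher at that p (edgeR), beside 8.24% of all genes. Adra2c, an alpha-2 adrenergic receptor (chr5:35278566-35281763), made up most of the group's level, with 78.2, 100.5 and 168 TPM as lowest, median and highest control value and 142, 229, 131, 185 and 121 after laser. The groups overlapped, and its log2 difference was 0.58 ± 0.22 (limma, adjusted p = 0.289), 0.92 within R1 and 0.31 within R2. Fzd8, a Wnt receptor, had 6.81, 15.4 and 24.4 TPM in control and 20.1, 31.4, 18.2, 39.0 and 16.5 after laser. Lpar6, a receptor for lysophosphatidic acid, differed by 0.01 ± 0.21.

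The other coding lists were small. Of 7 ubiquitin ligase adaptors tested out of 11, 4 were higher and 3 lower (median 0.33). Beside 5.2% of everything tested, 1 was higher at an unadjusted p under 0.05. That was Rnf208 (chr2:25242929-25244261), a RING finger protein, with 8.80, 13.1 and 16.5 TPM as lowest, median and highest control value and 14.98, 22.7, 28.0, 18.6 and 19.4 after laser. Only laser treated library 1 overlapped the controls, and the log2 difference was 0.66 ± 0.20 (limma, adjusted p = 0.272). Of 4 heat shock and DnaJ chaperones tested out of 7, 3 were higher and 1 lower (median 0.13). Dnajc30 (chr5:135064206-135065365), a mitochondrial J-domain protein, had 19.9, 24.2 and 27.7 TPM in control and 41.4, 32.0, 32.7, 32.0 and 35.1 after laser. Every laser library was above every control, with a log2 difference of 0.51 ± 0.13 (limma, adjusted p = 0.199), 0.66 within R1 and 0.38 within R2, and its 3′ part overlaps the gene Bud23. Hspa1a and Hspa1b, the inducible Hsp70 genes, which are 99.23% identical to each other over part of their length, differed by 0.15 ± 0.22 and −0.25 ± 0.34.

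Protocadherins, cell adhesion proteins of neurons, had 8 of 23 tested, 3 higher and 5 lower (median −0.06). At an unadjusted p under 0.05, 1 was higher and 1 lower, beside 5.2% and 8.39% of everything tested. Pcdhb12 had 0.867, 2.98 and 4.29 TPM in control and 6.07, 5.49, 2.89, 5.52 and 3.87 after laser. Developmental transcription factors of the Sox, Fox, Pou and basic helix-loop-helix families had 7 of 27 tested, 4 higher and 3 lower, none at an unadjusted p under 0.05 (median 0.03), with Sox4 highest at a mean of 5.61 TPM. Of 3 zinc finger genes tested out of 4, 1 was lower at an unadjusted p under 0.05, beside 8.39% of everything tested. That gene was Zfp238, with a log2 difference of −0.70 ± 0.31 (limma, adjusted p = 0.355). In the lists of potassium channels (5), leucine-rich repeat membrane proteins (7), connexins (3) and chemokine and apoptosis regulators (2), 1 member each was tested, Kcna5 at 0.19 ± 0.42, Amigo2 at 0.21 ± 0.27, Gjb6 at 0.08 ± 0.26 and Bcl2 at 0.37 ± 0.24. None of the 8 keratin-associated protein genes and not the 1 interferon gene, Ifnz, passed the level filter, and their highest mean TPM was 0.13 (Krtap16-3).

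Several single-exon genes outside the lists had the smallest p in the counts. Eid1, an inhibitor of the p300 coactivator (chr2:125673100-125675643), had 240 ± 58.0 CPM in control and 154 ± 31.0 after laser, a log2 fold change of −0.64 ± 0.19 (edgeR, adjusted p = 0.177). Its lowest, median and highest control TPM were 71.1, 101 and 133, and its laser values of 79.7, 49.0, 73.3, 90.2 and 58.7 overlapped them. Tspyl4, a nucleosome assembly family gene, had 221 ± 36.6 and 164 ± 8.44 CPM with a log2 fold change of −0.43 ± 0.13 (edgeR, adjusted p = 0.177). Jrkl, Mcts2 and the lncRNA 1700096K18Rik followed with −0.97 ± 0.30, −0.71 ± 0.24 and −0.81 ± 0.28. Mcts2 is itself an expressed retrocopy of Mcts1 that lies in an intron of H13. On the higher side Hps6, a gene for biogenesis of melanosomes and lysosomes, had 4.69 ± 1.81 CPM in control and 9.26 ± 4.70 after laser (0.98 ± 0.37, edgeR, adjusted p = 0.233). Its laser TPM values were 3.10, 2.87, 3.13, 8.84 and 3.17, and laser treated library 4 was also the highest in CPM, at 17.6. Without it the log2 fold change was 0.59 (edgeR, adjusted p = 0.488). B930041F14Rik had 12.3, 14.9 and 18.6 TPM as lowest, median and highest control value and 16.6, 19.04, 27.4, 22.1 and 25.9 after laser.

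MicroRNA precursors were mostly parts of other transcripts. Of the 216, 93 lay within an exon and 79 within an intron of another gene on the same strand, 19 in a gene on the opposite strand and 25 outside other genes. The median of the mean TPM was 0.755 in exons, 0.137 in introns and 0.0498 outside, and 45.2, 17.7 and 12% had a mean TPM of 1 or more. The mature forms are 16 to 26 bases long, and the TPM given here are levels of RNA over the hairpin, where host transcript and hairpin cannot be told apart, and not levels of the mature microRNA. The hairpin sequence was the same in RefSeq and GENCODE for the 174 precursors placed on the same coordinates.

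**Figure D5:**
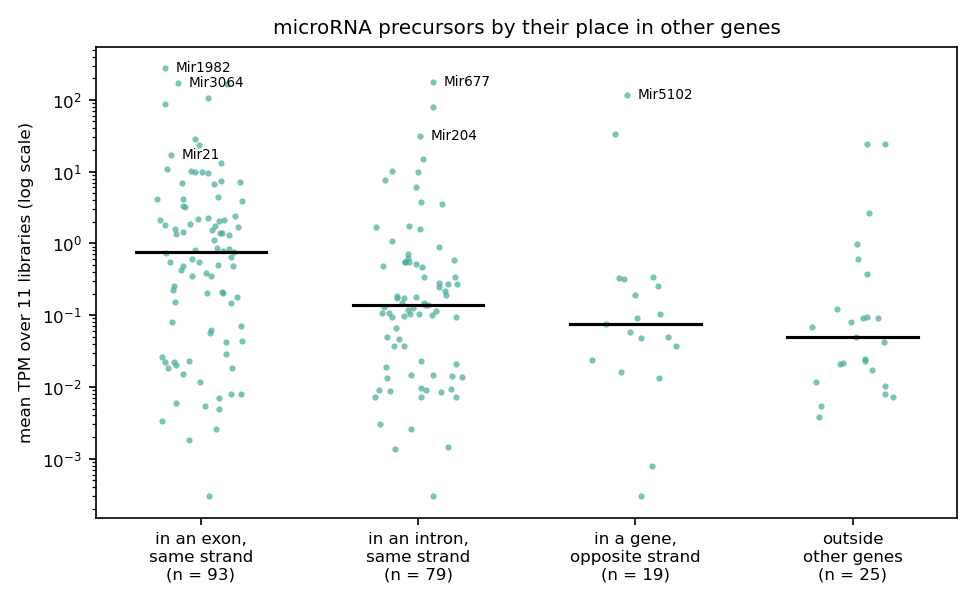
Mean TPM over 11 libraries (log axis) of the 216 microRNA precursors by place in other genes, each point 1 precursor and the line the median, with the 3 precursors at 0 drawn at 0.0003. Precursors inside exons on the same strand have the highest median, 0.755, and those outside other genes the lowest, 0.0498.

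The most abundant hairpins, Mir1982, Mir677, Mir3064 and Mir1892, each lay in an exon or intron of another gene. Mir1982 (chr10:80828797-80828870), whose mature form is the first shown above, lies in an exon of Oaz1 and had 177, 243 and 502 TPM as lowest, median and highest control value. Its laser values were 200, 382, 190, 193 and 213 TPM, with laser treated library 2 apart from the others. Mir677 (chr10:128085286-128085363) lies in an intron of the ATP synthase gene Atp5b and had 0, 167 and 225 TPM in control and 244, 211, 218, 202 and 134 after laser. One control library was at 0, and the log2 difference was 1.39 ± 1.26 (limma, adjusted p = 0.621). Mir3064, in an exon of the RNA helicase gene Ddx5, had 140, 179 and 213 TPM in control and 178, 175, 156, 158 and 139 after laser. Mir1892, in an exon of Sptssa and chosen after its values were seen, had a mean of 164 TPM.

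Mir204 (chr19:22750605-22750672), chosen for its role in the RPE, lies in an intron of Trpm3 and had 0.0578, 35.7 and 62.3 TPM as lowest, median and highest control value. In the laser libraries it had 67.9, 0.202, 37.9, 16.4 and 24.0 TPM. Each group held 1 library at almost 0, and the log2 difference was −0.35 ± 1.21 (limma, adjusted p = 0.91). Its host Trpm3, a cation channel gene, had 1547 ± 316 CPM in control and 1530 ± 364 after laser.

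Of the 52 precursors tested on the microRNA list of 218, 30 were higher and 22 lower after laser (median 0.16), with 4 higher and 1 lower at an unadjusted p under 0.05, beside 5.2% and 8.39% of everything tested. Among the 51 with that biotype, the number higher at that p was 8 without laser treated library 3 and 7 with upper quartile scaling, and the number lower was 3 without laser treated library 5. Mir546, in an exon of the phosphatase gene Ctdsp2 (chr10:126998440-126998560), had 6.89, 10.502 and 13.0 TPM in control and 13.4, 19.3, 15.05, 20.1 and 14.03 after laser. All laser values were above all control values, and the log2 difference was 0.64 ± 0.20 (limma, adjusted p = 0.272). Ctdsp2 had 34.6 ± 9.501 CPM in control and 48.1 ± 6.07 after laser. Mir5131, in an exon of Ddhd1, had 1.25, 1.56 and 1.82 TPM in control and 2.36, 3.95, 3.13, 2.11 and 1.85 after laser, also without overlap, while Ddhd1 had 34.7 ± 5.42 and 33.0 ± 4.75 CPM. Mir5102, in an intron of Fgfr2 on the opposite strand and chosen after its values were seen, had 102 ± 17.0 TPM in control and 131 ± 10.3 after laser. Mir1902, in an exon of Hipk3, likewise chosen, was the 1 lower precursor, with 33.6 ± 8.54 and 21.9 ± 5.38 TPM. Hipk3 had 127 ± 36.3 and 77.7 ± 18.9 CPM.

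SnoRNAs and related short RNAs, which guide chemical modification of ribosomal and spliceosomal RNA, were the least even class. Of the 113 short RNAs, 49 lay in exons and 46 in introns of genes on the same strand, with median mean TPM of 1.51 and 0.539, and 16 lay outside other genes, with 0.367. The median coefficient of variation over the 11 libraries was 115% for short RNAs with a mean TPM of 1 or more, 59.8% for microRNA precursors, 40.003% for lncRNAs, 37.8% for protein-coding transcripts and 36.0% for pseudogenes. Of the 585 transcripts with a mean TPM of 1 or more, 14 had over 50% of their summed TPM in 1 library, 7 of them short RNAs and 5 microRNA precursors. Snora15 had 99.5% in laser treated library 1 and Mir7-1 98.2% in laser treated library 3, both chosen after their values were seen.

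Snord14c and Snord14e, which lie in the gene of the chaperone Hspa8 next to each other, are shown because each was high in a single laser library, with the box C (TGATGA) and box D (CTGA) letters of this snoRNA family in capitals.
Snord14c: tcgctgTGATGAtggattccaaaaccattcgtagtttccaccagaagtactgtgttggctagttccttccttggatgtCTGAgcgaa
Snord14e: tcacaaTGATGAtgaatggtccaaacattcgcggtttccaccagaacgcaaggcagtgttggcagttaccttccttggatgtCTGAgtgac
Snord14c (chr9:40803583-40803669, plus strand) had 0, 36.2 and 336 TPM as lowest, median and highest control value and 0, 518, 0, 0 and 0 after laser. Snord14e (chr9:40804748-40804838, plus strand) had 0, 0.0662 and 82.4 TPM in control and 0, 0, 0, 485 and 0 after laser. Each was high in 1 laser library and not the same one, while Hspa8 had 921 ± 147 CPM in control and 1148 ± 226 after laser. Both boxes were found, searched on the transcript strand, in 18 of 56 Snord transcripts with a sequence (32.1%) and in 1% of 206 microRNA precursors.

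Mir21, Mir124a-2 and Mir704 were the other transcripts that varied most among those with a mean TPM of 10 or more. Mir21 (chr11:86584067-86584158), in an exon of Vmp1, had 0.107, 3.44 and 60.7 TPM as lowest, median and highest control value and 0.139, 60.4, 0.110, 0.145 and 0.136 after laser. Vmp1 had 162 ± 22.7 and 159 ± 15.8 CPM. Mir124a-2, the precursor of a neuronal microRNA, had 0.00460, 7.85 and 60.3 TPM in control and 0.0168, 0.00904, 24.4, 22.99 and 0.563 after laser. Mir704 was above 1 TPM in all 11 libraries, with 1.14, 1.72 and 24.0 TPM in control and 30.6, 42.8, 2.09, 2.89 and 2.26 after laser, so 1 control and 2 laser libraries stood far above the others. Of the 36 snoRNA and related transcripts tested out of 111 on the list, 17 were higher and 19 lower after laser (median −0.02). Among these, 1 was higher and 3 lower at an unadjusted p under 0.05, beside 5.2% and 8.39% of everything tested. Snora68 was listed in all 11 libraries, with 27.5, 74.3 and 94.4 TPM in control and 29.7, 61.3, 56.8, 58.1 and 104 after laser.

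LncRNAs were led by nuclear and well-studied species. The list of textbook lncRNAs held 7 transcripts, and of 5 tested 1 was higher and 4 lower after laser (median −0.01), none at an unadjusted p under 0.05. Neat1, here the unspliced short form of 3177 bases (chr19:5842302-5845478), had 12.6, 23.4 and 41.2 TPM as lowest, median and highest control value. Its laser values were 23.6, 14.03, 21.8, 24.9 and 49.9 TPM. 2900097C17Rik, the mouse Norad RNA, which binds Pumilio proteins, was the steadiest of the 3, with 50.4, 59.3 and 69.0 TPM in control and 52.2, 73.5, 52.9, 74.0 and 49.2 after laser. Its log2 difference was 0.00 ± 0.14 beside −0.01 ± 0.34 for Neat1. Over all 63 lncRNAs tested, 32 were higher and 31 lower (median 0.03). In each direction 1 had an unadjusted p under 0.05, beside 5.2% higher and 8.39% lower of everything tested. Among those below the filter, 2900060B14Rik, in an intron of Clasp1 on the opposite strand, had 0, 0.0642 and 0.0975 TPM in control and 0.284, 0.159, 0.113, 0.238 and 0.223 after laser, values without overlap but all below 0.3 TPM.

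Transcripts without a biotype had 34 tested of 197, 11 higher and 23 lower (median −0.27). Of these, 2 in each direction had an unadjusted p under 0.05, beside 5.2% higher and 8.39% lower of everything tested. Gm8029 (chr1:178299396-178300270) had 146, 154 and 277 TPM as lowest, median and highest control value and 126, 107, 142, 113 and 112 after laser. Every laser library was below every control, and the log2 difference was −0.52 ± 0.17 (limma, adjusted p = 0.278). Gm6485 and Gm9892, both pseudogenes and the latter 99.5% identical to the translation initiation gene Eif2s2, completed the set of transcripts without overlap. Gm6485 had 66.3, 79.6 and 142 TPM in control and 57.5, 46.2, 56.7, 50.4 and 55.9 after laser. Gm9892 had 8.41, 10.4 and 11.8 TPM in control and 7.14, 6.91, 5.72, 7.18 and 8.22 after laser.

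Totals over the whole set overlapped between the groups. The number of the 1600 with a TPM above 0 was 1078 ± 64.3 in control and 1065 ± 43.4 in laser libraries, a difference of −13.5 that was −42.0 within label R1 and 4.00 within R2. With a TPM of 1 or more it was 552 ± 15.6 and 560 ± 15.9. Their summed TPM was 12620 ± 1286 in control and 11396 ± 691 after laser, a difference of −1224, with −1787 within R1 and −670 within R2, and −759 without Malat1. Both differences were smaller than the SD of the control libraries and were given no test.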

How the data were processed

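RNA from RPE/choroid was amplified with an oligo(dT)-primed kit and sequenced by the study. Per the submitters' processing notes, bcl2fastq 2.18.0.12, Trim Galore, STAR 2.5.3a, featureCounts 1.5.3, StringTie 1.3.3 and edgeR 3.22.3 were used with mm10/GRCm38. The authors deposited a table of raw gene counts for 14602 genes, with 5 columns of their own comparison that were not used, and a transcript file per library whose deposited TPM were taken as given. Multi-mapped read settings are not given in the sources used here, and the kit is not stated to mark strand, so reads of genes on opposite strands cannot be told apart.

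Transcripts with a TPM of 1 or more in at least 5 of 11 libraries were tested on log2(TPM + 1) with limma 3.58.1 (robust, trended), so differences of low transcripts are understated. Counts were tested with edgeR 4.0.16 (quasi-likelihood, TMM), with DESeq2 1.42.0 as an alternative, in R 4.3.3. P-values were adjusted by Benjamini-Hochberg over everything tested, at 0.05. All fits compared 5 laser treated with 6 naive control libraries, without covariates. Scripts were tested on simulated data. Copies were searched with blastn 2.17.0 among GENCODE release 21 transcripts (GRCm38), and biotypes and sequences came from RefSeq (GRCm38.p6). Biotypes matched by accession for 521 transcripts, by symbol for 802 and by synonym for 70.

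The transcripts and gene lists were chosen with earlier results of these data known. Named were the 12 most abundant transcripts, the 5 with the smallest p in each direction in either fit, up to 10 without overlap between groups, the 3 most abundant of each list and the 5 most variable with a mean TPM of 10 or more. The rule also asked for transcripts at a TPM of 1 or more throughout one group and unlisted in the other, of which there were 0.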

Additional observations from a re-analysis of the deposited data

Results flagged for a closer look

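For the named transcripts, each group of 5 or 6 libraries was checked for 1 library far from the others by Dixon's criterion. Of 160 groups, 16 (10%) held one. Chance gives about 1 in 20 in groups not chosen for their values, and here some transcripts were named because they varied most or because the groups did not overlap, so the share is no measure of an excess. In the laser treated group these were Mir1982 at 382 TPM in library 2, Snord14c at 518 TPM in library 2, Mir21 at 60.4 TPM in library 2, Snord14e at 485 TPM in library 4, Hps6 at 8.84 TPM in library 4, Krtap7-1 at 0.222 TPM in library 5 and, as the only low value, Jund at 23.6 TPM in library 1. In the naive control group they were Gm8029 at 277 TPM, Snord14e at 82.4 TPM, Krtap7-1 at 0.309 TPM and Bcl2a1c at 0.080 TPM in library 3, Mir704 at 24.0 TPM, Krtap3-2 at 0.834 TPM and Gjd3 at 0.053 TPM in library 4, and Krtap16-3 at 1.43 TPM and Ifnz at 0.020 TPM in library 1. Snord14c, Snord14e, Mir21 and the keratin-associated genes were near or at 0 in most other libraries of those groups.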

How the results depend on the processing

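The count of single-exon transcripts past the adjusted threshold in TPM was 0 with a pseudocount of 0.1, without the level filter (1381 tested), among those listed in all libraries, in FPKM, with upper quartile scaling, with the R1 or R2 label as a covariate and without robust estimation. Leaving out 1 library gave 0 to 3, the 3 without naive control library 6. In counts it was 2 with DESeq2 (Eid1 and Tspyl4) and 0 in all other alternatives. Upper quartile scaling turned the split at an unadjusted p under 0.05 from 30 higher and 46 lower to 41 and 37. With the replicate number as a block (replicate block) the count was 0 in both tables. Same-numbered libraries correlated in their deviations at −0.13 to 0.27 in TPM. Whether they share more than a number was not tested. Naive control library 6 has no partner and does not enter that comparison. The block gave 31 higher and 45 lower in TPM and 12 and 31 in counts. Of 436 alternative values for 24 named results, 432 kept direction and side of the threshold, 4 passed it and 0 reversed. These 24 were named for a small p or for groups without overlap in these same data. The alternatives reuse all or all but 1 of the libraries, so a kept direction is no independent support. Leaving out 1 library moved the difference in number detected between −34.4 and 0 and that in summed TPM between −1586 and −847. The cause of these changes was not tested. Transcripts near 1 TPM and hairpins under 200 bases rest on few reads, and with 5 against 6 libraries small differences could not be shown. Many 2-fold differences would also be missed. In simulated data, 38 of 60 changes of 2-fold were recovered in the TPM fit and 44 of 200 in the count fit.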
